A study of Mus musculus with 18 samples.

Results

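The LPS response of the tagged-ribosome fraction was taken from the 9 positive-fraction libraries of Cx3cr1-NuTRAP mouse brain, chosen by their fraction label out of the 18 libraries of the series. Translating ribosome affinity purification (TRAP) pulls EGFP-tagged ribosomes out of a brain homogenate with an anti-GFP antibody, and the RNA bound to them, here called the positive fraction, was sequenced. 5 animals (266, 267, 270, 271 and 507; 4 female and 1 male) had received 5 mg/kg LPS intraperitoneally and 4 animals (268, 272, 273 and 506; 2 female and 2 male) had received PBS, and RNA was collected 24 h later from 1 hemisected brain piece of each mouse. All 9 mice, controls included, carried Cx3cr1-cre/ERT2+ and NuTRAP+ and had been given tamoxifen (Tam) at about 3 months of age, 3 to 4 weeks before the injection. The Cre driver, a single Cx3cr1 allele, is also active in macrophages of the brain borders and in blood monocytes, so the tag marks Cx3cr1-expressing cells and not microglia alone; the wait after Tam was meant to let short-lived blood monocytes be replaced by untagged ones. Each animal is 1 replicate, and its values come from a bulk library, in which fewer cells of a type and less RNA per cell cannot be told apart.

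Lipopolysaccharide (LPS) is a cell wall component of Gram-negative bacteria. It is carried by LBP to CD14 and sensed by TLR4 with MD-2 (Ly96), and the adaptors MyD88 and TRIF (Ticam1) pass the signal on. The MyD88 branch activates NF-kB and the transcription of cytokines and chemokines, and the TRIF branch activates interferon regulatory factors, type I interferon and then the interferon-stimulated genes (ISGs). Microglia, the resident macrophages of the brain parenchyma, are recognised at rest by a set of homeostatic genes such as P2ry12, Tmem119 and Gpr34, several of which depend on TGF-beta signalling. Because TRAP collects RNA on ribosomes, the values are levels of ribosome-bound RNA and not of protein.

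The positive libraries held 22968939 to 32710275 estimated counts, with a count in 17863 to 18314 genes each. One library stood apart on ribosomal RNA precursor: Rn45s took 1.3% of the counts of LPS animal 271 and 0.187 to 0.313% of those of the other 8. Microglial transcripts were concentrated in the fraction in both groups. The summed level of 26 homeostatic microglial genes was 5.75 ± 0.78 times (SD, n = 4) the input level of the same animal under PBS and 3.84 ± 0.55 times (n = 4) under LPS, and that of 15 markers of border-associated macrophages was 12 ± 2.14 and 11 ± 0.97 times the input level. RNA of other brain cells was also present: on the same scale, neuron markers stood at 0.993 ± 0.036 times input under PBS and 0.883 ± 0.044 times under LPS, and astrocyte markers at 1.06 ± 0.12 and 0.92 ± 0.054 times. Endothelial markers stood at 2.24 ± 0.12 times input under PBS and 1.45 ± 0.14 times under LPS, and oligodendrocyte markers at 0.347 ± 0.056 and 0.433 ± 0.019 times.

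Values below are normalised counts, scaled by the median of ratios within these 9 libraries, and are always given in the order 268, 272, 273 and 506 for PBS and 266, 267, 270, 271 and 507 for LPS. A gene was tested if it exceeded 20 normalised counts in every library of at least 1 group, and was called raised or lowered at a Benjamini-Hochberg adjusted p under 0.05 (edgeR quasi-likelihood test) with an absolute log2 fold change over 0.32. "Rose" and "fell" are used for called genes only, and fold changes are LPS over PBS on the log2 scale with the standard error (SE) of the fit. A dagger (†) marks a gene whose call changed when 1 library was left out; the libraries are named with the processing alternatives.

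A large share of this translatome differed between LPS and PBS animals. Of 14238 genes tested, 4526 (31.8%) were called, 2449 (17.2%) raised and 2077 (14.6%) lowered. The rises were the steeper side: 702 genes rose and 345 fell more than 2-fold, 237 and 58 more than 4-fold, 91 and 15 more than 10-fold, and 34 and 2 more than 32-fold. The groups did not overlap in 4462 genes (31.3%), of which 3768 were called. Sex was not balanced between the groups, and with the 4 female LPS and 2 female PBS animals alone 2176 genes were called (1294 raised, 882 lowered), none against its direction in all 9. Without animals 506 and 507, whose numbers set them apart from the others, 3538 were called (2038 raised, 1500 lowered). The median log2 fold change over all tested genes was -0.008.

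Rises over 5-fold came from genes of low and middle level under PBS. They were seen in 77 of 319 tested genes with a PBS mean under 30 normalised counts, 40 of 1621 at 30 to 100, 28 of 2118 at 100 to 300, 25 of 4078 at 300 to 1000 and 6 of 3824 at 1000 to 3000, while none of the 1863 genes at 3000 to 10000 and of the 415 genes above 10000 rose so far. The filter on low counts lets in genes through either group: 312 genes passed it through the LPS libraries alone and 374 through the PBS libraries alone, and 159 of the former rose and 135 of the latter fell. A gene of the lowest class can enter through high LPS values, so the share of that class is in part set by the filter. The same holds for the counts of rises given below wherever list members were let in by the LPS libraries alone. Among the 415 genes above 10000 counts under PBS, 108 fell and 20 rose. The genes raised over 5-fold took 0.105 to 0.122% of all normalised counts in the PBS animals and from 0.822% (animal 270) to 1.78% (animal 266) in the LPS animals. All raised genes together took 11 to 11.5% under PBS and 17.6 to 20.7% under LPS, and all lowered genes 20 to 20.9% and 12.9 to 14.8%. On the first principal component, which held 62.5% of the variance, every LPS animal lay apart from every PBS animal. The second, with 15.6%, ran from LPS animal 270 at -30.7 to LPS animal 266 at 36.7, with the PBS animals between them.

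**Figure D1:**
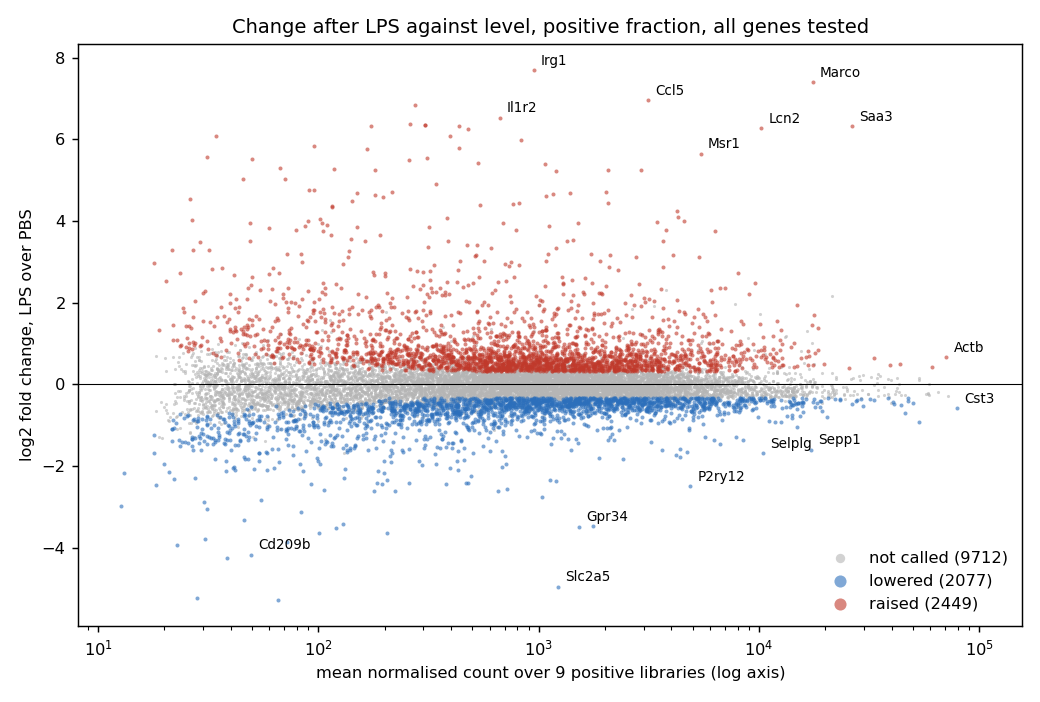
Each point is 1 of the 14238 genes tested, placed by its mean normalised count over the 9 positive libraries (log axis) and its log2 fold change, LPS over PBS; red genes are raised (2449), blue genes lowered (2077) and grey genes not called. Rises over 32-fold such as Irg1, Marco and Ccl5 reach far above the falls, of which Slc2a5 is the largest among genes with a mean of at least 100.

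The largest rise belonged to Irg1, which encodes the enzyme that makes itaconate from the citric acid cycle intermediate aconitate (also known as Acod1). Irg1 (Entrez gene 16365, mm10 chr14:103047012-103056573) measured 11.9, 3.53, 14.5 and 3.52 in the PBS animals and 2686, 1499, 445, 2611 and 1274 in the LPS animals (log2 fold change 7.68 ± 0.66 (SE), adjusted p = 8.64e-06). Every LPS animal stood at least 53.3-fold above the PBS mean, and animal 270 was the lowest of them. The scavenger receptor Marco, which binds bacteria and particles, measured 119.6, 149, 199 and 283 in the PBS animals and 59281, 39557, 2779.6, 26357 and 29101 in the LPS animals (log2 fold change 7.39 ± 0.80 (SE), adjusted p = 4.18e-05). Animal 270 was again the lowest, at 14.8-fold over the PBS mean, while animal 266 reached 316-fold.

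Several of the other steep rises were of secreted or surface proteins of the acute inflammatory response. The T cell chemoattractant Ccl5 measured 35.6, 45, 49.6 and 51.6 in the PBS animals and 6953, 5584, 2956, 8116 and 4546 in the LPS animals (log2 fold change 6.96 ± 0.33 (SE), adjusted p = 1.46e-07). The lipid-sensing G protein-coupled receptor Gpr18 measured 2.96, 4.41, 7.25 and 2.35 in the PBS animals and 595, 504, 223, 712 and 424 in the LPS animals (log2 fold change 6.83 ± 0.44 (SE), adjusted p = 1.10e-06). The decoy receptor Il1r2, which binds interleukin-1 without signalling, measured 10.9, 15, 6.04 and 18.8 in the PBS animals and 305, 1028, 2693, 985 and 925 in the LPS animals (log2 fold change 6.53 ± 0.66 (SE), adjusted p = 2.82e-05), and here animal 270 was the highest and animal 266 the lowest. None of these 3 genes overlapped between groups, which the rule for naming the largest rises required.

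Acute-phase genes were among the most abundant of the raised genes. Serum amyloid A3 (Saa3) measured 339, 474, 672 and 872 in the PBS animals and 67901, 56324, 21040, 44088 and 46364 in the LPS animals (log2 fold change 6.32 ± 0.41 (SE), adjusted p = 1.20e-06) and showed the largest gain in mean count of all called genes. Lipocalin 2 (Lcn2), which withholds iron by binding bacterial siderophores, measured 203, 128, 279 and 336 in the PBS animals and 24362, 22129, 10043, 17444 and 17004 in the LPS animals (log2 fold change 6.27 ± 0.36 (SE), adjusted p = 5.90e-07). Both were lowest in animal 270 within the LPS group, and Lcn2 is also known from reactive astrocytes, whose RNA was present in the fraction. Haptoglobin (Hp) rose as well (5.77 ± 0.64), with 2.65 to 27 in PBS and 240.1 to 1610.3 in LPS animals.

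Receptors of myeloid cells made up much of the rest of the 20 steepest rises. Trem1, which amplifies TLR signals, rose by 6.37 ± 0.52, and the formyl peptide receptors Fpr1 and Fpr2, which sense bacterial peptides, by 5.99 ± 0.58 and 6.31 ± 0.61. The paired receptors Pilrb1 and Pilrb2 rose by 6.34 ± 0.60 and 6.33 ± 0.76, the scavenger receptor Msr1 by 5.65 ± 0.34 and the C-type lectin Clec4d by 5.50 ± 0.29. Csf3 (granulocyte colony-stimulating factor) rose by 6.34 ± 0.45 and the interleukin-1 receptor antagonist Il1rn by 5.55 ± 0.59. Pilrb1 and Pilrb2 are close copies, as are Fpr1 and Fpr2 to a lesser degree, so how reads were split within each pair is uncertain. The transcript 1810033B17Rik rose by 6.26 ± 0.40, with 8.46 to 13.8 in PBS and 345 to 1133 in LPS animals.

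**Figure D2:**
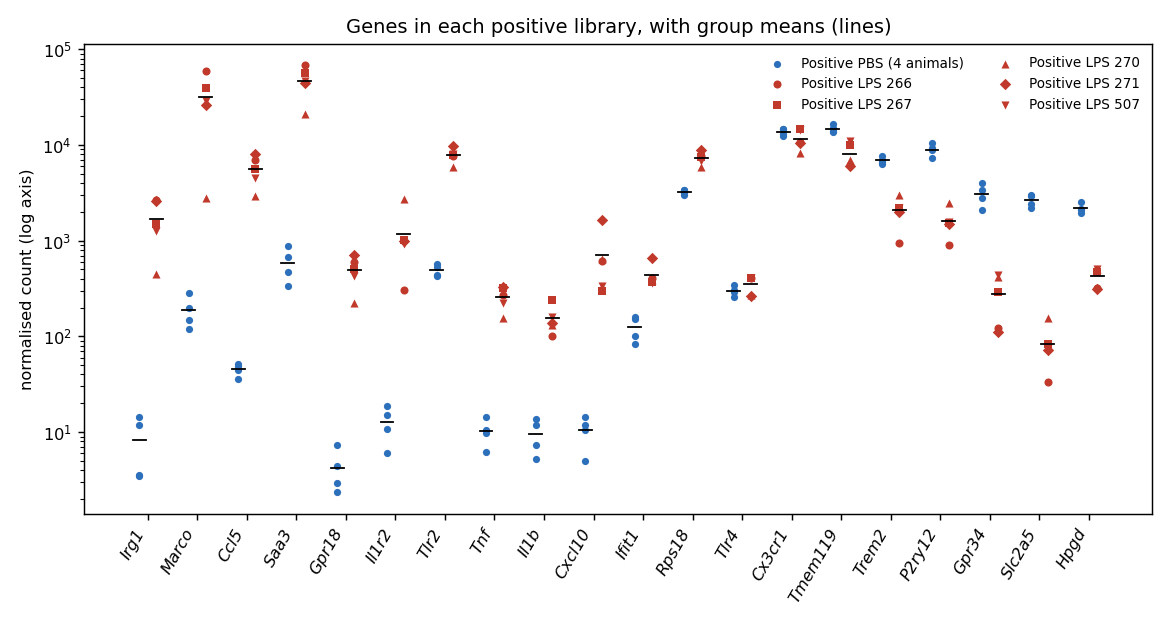
Normalised counts (log axis) of 20 genes in each positive library, with 4 PBS animals in blue, the 5 LPS animals in red with a symbol for each animal, and group means as black lines. The groups are separated for Irg1, Marco, Ccl5, Saa3, Tlr2, P2ry12 and Slc2a5 and overlap for Tlr4 and Cx3cr1, and animal 270 (upward triangle) is the lowest LPS animal for Marco, Irg1, Ccl5 and Saa3.

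Within the LPS-sensing apparatus, the receptor itself was not called, and 10 of 22 co-receptors and adaptors rose. Tlr4 measured 308, 290.1, 261 and 340.3 in the PBS animals and 409, 404, 272, 261 and 412 in the LPS animals (log2 fold change 0.23 ± 0.17 (SE), adjusted p = 0.316), and the groups overlapped. Tlr2, which recognises bacterial lipoproteins, measured 431, 564, 442 and 526 in the PBS animals and 7605, 7777, 5907, 9713 and 8108 in the LPS animals (log2 fold change 3.99 ± 0.16 (SE), adjusted p = 3.45e-08), with every LPS animal 12- to 19.8-fold above the PBS mean. Of 11 Toll-like receptors tested, 5 rose (Tlr2, Tlr1 2.95, Tlr7 1.28, Tlr13 1.17 and Tlr6 1.08), Tlr12 fell (-1.34) and 5 were not called. The median of the list was 0.58, beside -0.008 over all genes tested.

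The co-receptor Cd14 measured 1516, 1399, 1399 and 1672 in the PBS animals and 4671, 4924, 5627, 6740.1 and 5243 in the LPS animals (log2 fold change 1.86 ± 0.12 (SE), adjusted p = 9.30e-07). Of 22 co-receptors and adaptors tested, 10 rose, none fell and 12 were not called. Those that rose included the LPS carrier Lbp (2.14 ± 0.22), the adaptors Myd88 (1.45 ± 0.13), Tirap (1.05), Ticam2 (0.78†) and Ticam1 (0.67), and Cd180 (0.73), a TLR4-like receptor. Irak3, a kinase-dead member of the IRAK family that dampens MyD88 signalling, rose the most (3.79 ± 0.32), whereas the signalling kinases Irak1 (0.01) and Irak4 (0.58†) and the TLR4 partner Ly96 (0.37) were not called.

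NF-kB subunits and their inhibitors rose nearly as a block. All but 1 (Cyld, -0.07) of the 15 tested rose, with a median of 0.98. IkB-alpha (Nfkbia), the inhibitor that NF-kB itself induces, measured 1812, 2127, 3154 and 2268 in the PBS animals and 5838, 6729, 7776, 10193 and 5928 in the LPS animals (log2 fold change 1.64 ± 0.20 (SE), adjusted p = 9.06e-05). Of the subunits, Rela rose by 0.51 ± 0.12, Nfkb1 by 0.82 and Nfkb2 by 2.05, against 3.89 ± 0.37 for the atypical IkB protein Nfkbiz, 3.36 ± 0.23 for Bcl3 and 3.20 for the deubiquitinase A20 (Tnfaip3).

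Of 21 genes of negative feedback on cytokine and kinase signalling, 8 rose, 2 fell and 11 were not called. The suppressor of cytokine signalling Socs3 measured 279.7, 127, 220 and 205 in the PBS animals and 2707, 2498, 1664, 3085 and 2129.6 in the LPS animals (log2 fold change 3.54 ± 0.24 (SE), adjusted p = 1.49e-06). The endoribonuclease Zc3h12a (regnase-1), which degrades cytokine mRNAs, rose by 3.94 ± 0.28, the mRNA decay factor Zfp36 (tristetraprolin) by 1.08 ± 0.12 and the phosphatase Dusp1 by 1.49 ± 0.32. Dusp3 (-0.61) and Dusp4 (-0.68) fell.

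Cytokines rose from very low PBS levels. Tnf measured 9.88, 6.17, 14.5 and 10.6 in the PBS animals and 271, 321, 155, 332 and 223 in the LPS animals (log2 fold change 4.68 ± 0.32 (SE), adjusted p = 1.49e-06) and interleukin-1 beta (Il1b) 13.8, 5.29, 7.25 and 11.7 in the PBS animals and 101, 241, 131, 138 and 160.1 in the LPS animals (log2 fold change 4.01 ± 0.35 (SE), adjusted p = 1.03e-05). The LPS animals were all above the PBS animals for both genes, but Il1b and Tnf remained rare transcripts at this time point. Of 17 inflammatory cytokines tested, 9 rose, 3 fell (Il15 -0.86†, Il33 -0.80 and Il34 -0.45) and 5 were not called. A further 8, among them Il6, Il10, Il12a and Il12b, were under the filter on low counts, and 3 of the 17 passed it through the LPS libraries alone.

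Cytokine receptors and antagonists followed with 16 raised, 3 lowered and 9 not called of 28, of which 3 passed the filter through the LPS libraries alone. The antagonist Il1rn measured 11.9, 7.05, 20.6 and 8.21 in the PBS animals and 565, 278, 388, 1241 and 276 in the LPS animals (log2 fold change 5.55 ± 0.59 (SE), adjusted p = 3.72e-05). The common gamma chain Il2rg rose by 2.79, Il15ra by 2.35 and the interleukin-18 receptor subunit Il18rap by 3.83. Il7r (-3.64 ± 0.45), Csf3r (-0.93) and Il21r (-0.45†) fell. The receptor for the microglial survival factor CSF1, Csf1r, was not called (-0.18).

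Most chemokines that passed the filter rose. Of 15 CC chemokines tested, 10 rose, 3 fell and 2 were not called. Of 10 CXC and CX3C chemokines, 7 rose, 2 fell and 1 was not called. The filter was passed through the LPS libraries alone by 4 of the CC and 6 of the CXC and CX3C members, which favours rises in these counts. The interferon-induced Cxcl10 measured 4.94, 10.6, 14.5 and 11.7 in the PBS animals and 613, 299, 642, 1629.5 and 336 in the LPS animals (log2 fold change 6.08 ± 0.63 (SE), adjusted p = 3.00e-05), with animal 271 far above the other 4. The neutrophil attractant Cxcl1 rose by 5.77 ± 0.69, from 0 to 8.46 in PBS and 117 to 669 in LPS animals, the monocyte attractant Ccl2 by 3.66 ± 0.45, Ccl3 by 4.60 ± 0.58, Ccl22 by 4.37 ± 0.60 and the membrane-bound Cxcl16 by 3.11 ± 0.19. The members that fell were Ccl6 (-0.97), Ccl8 (-1.41), Ccl24 (-2.03), Cxcl12 (-1.31) and Cx3cl1 (-0.81), the neuronal ligand of Cx3cr1. Of 10 chemokine receptors tested, 1, Ccrl2 (1.12), rose, 2 fell, Ccr2 (-2.33 ± 0.37) among them, and 7 were not called, a called share near that of all genes.

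G protein-coupled receptors of immune cells went both ways. Of 20 tested, 12 rose, 4 fell and 4 were not called, with a median of 1.18. Beside Gpr18 and the formyl peptide receptors, the medium-chain fatty acid receptor Gpr84 rose by 4.24 ± 0.32, the niacin receptor Niacr1 by 4.39 and the anaphylatoxin receptors C3ar1 and C5ar1 by 2.34 and 2.23. Those that fell were Gpr34, described with the homeostatic genes, Cysltr1 (-1.31), S1pr1 (-0.94) and Gpr160 (-0.91).

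ISGs rose almost without exception. Of 35 tested, 34 rose, none fell and 1 (Oas2, 0.28) was not called, with a median of 1.56. The filter was passed through the LPS libraries alone by 4 of the 35, which favours rises in this count. Ifit1, which binds foreign RNA, measured 101, 160.5, 151 and 83.3 in the PBS animals and 409, 371, 386, 652 and 365 in the LPS animals (log2 fold change 1.81 ± 0.24 (SE), adjusted p = 1.87e-04), and animal 271 again stood above the other 4 LPS animals. The ubiquitin-like Isg15 rose by 2.25 ± 0.21, the transcription factor Irf7 by 2.51 ± 0.13, the nucleic acid sensor Zbp1 by 3.85 ± 0.27 and Oasl1 by 3.91 ± 0.42. Of 14 interferon-inducible GTPases, which attack vacuoles that hold pathogens, 13 rose and Gbp9 (0.22) was not called. Gbp2 measured 179.9, 249, 166 and 199 in the PBS animals and 2709, 1028, 1432, 3235 and 1608 in the LPS animals (log2 fold change 3.33 ± 0.33 (SE), adjusted p = 2.40e-05) and Irgm1 412, 581, 511 and 469 in the PBS animals and 1214, 1113, 2290, 3081 and 1203 in the LPS animals (log2 fold change 1.85 ± 0.30 (SE), adjusted p = 7.17e-04), both highest in animal 271.

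The transcription factors and sensors of this system also rose in most cases. Of 20 IRF and STAT family and related factors, 15 rose, 3 fell, Irf4 (-0.85†) and Stat5b (-0.32†) among them, and 2 were not called. Irf1 rose by 0.64 ± 0.10, Irf8 by 0.70 ± 0.12 and the AP-1 factor Batf by 2.76 ± 0.19. Of 16 cytosolic nucleic acid sensors and their kinases, 10 rose, 2 fell and 4 were not called. Ikbke, the inducible kinase of IRF3 and IRF7, rose by 5.41 ± 0.51 and the RNA sensor MDA5 (Ifih1) by 1.51 ± 0.13, while the adaptor STING (Tmem173, -0.68†) and Ifi203 (-0.95†) fell.

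Interferon regulatory factors bind the interferon-stimulated response element (ISRE) and NF-kB binds kB sites, so the promoters of tested genes were searched for the letters of both. A RefSeq promoter window (GRCm38.p6, which has the mm10 chromosome sequences; 250 bases before to 50 after the annotated start) was at hand for 11265 of the 14238 genes. The ISRE letters, GAAA and GAAA with any 2 bases between them, on either strand, were in 3.75% of all windows, in 5.8% of those of raised genes, 3.85% of lowered genes and 3.21% of genes not called. Among genes raised over 5-fold they were in 18 of 141 (12.8%), among ISGs in 14 of 25 (56%) and among interferon-inducible GTPases in 8 of 9 (88.9%). They were also in 6 of 43 windows of cytosolic ribosomal proteins (14%), in 1 of 10 of CC chemokines (10%) and in 0 of 20 of homeostatic microglial genes. Sepp1, which fell, and the lysosomal gene Lamp1, which was not called, held them too. The windows around the match in 8 raised genes are shown 5′ to 3′ on the gene's strand, because these genes span the range from classic ISGs to receptors; capitals mark the ISRE letters or their reverse complement.
Ifit1, chr19:34640775-34640804, gene strand +: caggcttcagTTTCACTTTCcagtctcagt
Ifit1, chr19:34640794-34640823, gene strand +: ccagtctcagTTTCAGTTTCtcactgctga
Isg15, chr4:156200871-156200900, gene strand -: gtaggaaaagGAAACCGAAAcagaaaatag
Gbp2, chr3:142620594-142620623, gene strand +: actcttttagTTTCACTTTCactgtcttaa
Irgm1, chr11:48871425-48871454, gene strand -: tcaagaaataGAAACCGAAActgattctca
Cxcl10, chr5:92349083-92349112, gene strand -: tcacgctttgGAAAGTGAAActtacctcac
Gpr18, chr14:121915910-121915939, gene strand -: aatcacttgtGAAAGAGAAAaccacatcca
Fcgr4, chr1:171018843-171018872, gene strand +: ggtgtttctgGAAAAGGAAActggtgagat
Myd88, chr9:119340039-119340068, gene strand -: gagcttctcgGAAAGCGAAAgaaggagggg
Ifit1 held 2 matches, and Isg15 and Irgm1 held overlapping ones, of which 1 each is shown. Gpr18 and Fcgr4, which are not in the ISG list, rose by 6.83 and 4.70, against 1.81 for Ifit1. A match is a run of letters and was not tested for binding.

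The kB letters, GGGA and TTTCC with any 1 base between them, on either strand, were rarer. They were in 0.506% of all windows, 0.959% of those of raised genes and 0.379% of those of lowered genes, in 3 of 12 windows of NF-kB subunits and inhibitors (25%) and in 2 of 8 of CXC chemokines (25%). Genes raised over 5-fold held them in 2 of 141 windows (1.42%), inflammatory cytokines in 2 of 11 (18.2%) and CC chemokines in 0 of 10. The neutrophil attractant Cxcl1 and the inhibitor Nfkbia show them on opposite strands, and B2m, the light chain of MHC class I, holds both kinds of letters within its window, with capitals as before.
Cxcl1, chr5:90891164-90891193, gene strand +: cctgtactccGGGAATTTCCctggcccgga
Nfkbia, chr12:55492657-55492686, gene strand -: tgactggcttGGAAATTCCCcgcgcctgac
B2m, chr2:122147538-122147567, gene strand +: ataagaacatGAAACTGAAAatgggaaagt
B2m, chr2:122147551-122147580, gene strand +: actgaaaatgGGAAAGTCCCtttgtaacct
The pair of B2m windows overlap.

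Most genes of MHC class I presentation rose, whereas 5 class II chains fell. Of 17 class I presentation genes, 13 rose, none fell and 4 were not called, with a median of 0.71. B2m rose by 0.68 ± 0.12, the peptide transporter Tap1 by 1.64 ± 0.16 and the heavy chain H2-K1 by 1.48; H2-Q6 (1.89 ± 0.28) and H2-Q7 (2.13 ± 0.25) are close copies and are uncertain. Of the class II and costimulation list, 5 of 14 tested rose, 5 fell and 4 were not called. The class II beta chain H2-Eb1 measured 935, 651, 479 and 718 in the PBS animals and 77.4, 83.3, 221, 168 and 94 in the LPS animals (log2 fold change -2.43 ± 0.31 (SE), adjusted p = 1.46e-04), and H2-Aa (-2.04), H2-Ab1 (-1.67), H2-Ob (-1.88) and H2-Oa (-0.91) fell with it. The invariant chain Cd74 went the other way, at 2616, 1955, 1651 and 2389 in the PBS animals and 2592, 2673, 4118, 3864 and 2884 in the LPS animals (log2 fold change 0.58 ± 0.17 (SE), adjusted p = 0.0209), with overlap between the groups, and was no longer called without PBS animal 272 or 273. The raised members were Cd74 and 4 costimulatory or checkpoint ligands: Cd40 (2.32 ± 0.32), Cd274 (2.01), Cd80 (0.71†) and Icosl (0.46).

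Proteasome genes, which cut proteins into the peptides shown on class I, rose broadly. Of 31 genes of the constitutive proteasome, 27 rose, none fell and 4 were not called, with a median of 0.51, led by Psmb3 (1.00 ± 0.13) and Psmb2 (0.83 ± 0.10). Among 5 immunoproteasome genes, the catalytic subunit Psmb8 measured 1227, 1339, 1329.8 and 1490.3 in the PBS animals and 2433, 2562, 1659.6, 2533 and 2775 in the LPS animals (log2 fold change 0.83 ± 0.13 (SE), adjusted p = 6.78e-04), the activators Psme1 (1.02 ± 0.10) and Psme2 (1.28 ± 0.14) and Psmb10 (0.79) rose, and Psmb9 (0.14 ± 0.21) was not called.

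Of 19 complement genes tested, 13 rose, 2 fell and 4 were not called. Complement component 3 (C3) measured 72.1, 68.8, 56.8 and 59.8 in the PBS animals and 2269, 1833, 369.9, 982 and 1599 in the LPS animals (log2 fold change 4.44 ± 0.47 (SE), adjusted p = 3.82e-05), with animal 270 the lowest at 5.75-fold and animal 266 the highest at 35.2-fold over the PBS mean. Factor B (Cfb), of the alternative pathway, rose by 3.03 ± 0.18. The C1q chains C1qa (0.47 ± 0.11) and C1qb (0.51 ± 0.11), which start the classical pathway, rose by little, with overlapping groups for C1qa. Of the members that fell, Cd59a (-0.46†) protects host cells from the membrane attack complex.

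Fc receptors showed one steep rise. The activating receptor Fcgr4 (mm10 chr1:171018926-171029761) measured 147, 123, 157 and 119.7 in the PBS animals and 3754, 3058, 2659, 4751 and 3491 in the LPS animals (log2 fold change 4.70 ± 0.19 (SE), adjusted p = 3.45e-08), with all 5 LPS animals 19.5- to 34.8-fold above the PBS mean. Fcgr1 rose by 1.27 ± 0.10 and the inhibitory Fcgr2b by 1.19 ± 0.19. Of 23 Fc and inhibitory receptors and their kinases, 15 rose, 4 fell (Siglech -1.79, 4632428N05Rik -0.91, Cd300a -0.83† and Sirpa -0.79) and 4 were not called. The immunoglobulin-like receptors Cd300lf (5.23 ± 0.45) and Lilrb4 (4.41) rose with them.

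Scavenger and C-type lectin receptors were divided. Of 20 tested, 10 rose, 5 fell and 5 were not called, with a median of 0.37. Marco, Msr1 and the Clec4 members Clec4d, Clec4e (5.24) and Clec4a1 (4.44) rose, while the lipid scavenger Cd36 (-1.50), the beta-glucan receptor Clec7a (-1.57), Clec4n (-0.90), Cd209a (-3.86) and the mannose receptor Mrc1 fell. Adhesion molecules included large rises of the integrins Itgal (2.64 ± 0.19) and Itga5 (2.63 ± 0.14) beside small ones of Itgam (0.83 ± 0.19) and Itgb2 (0.80 ± 0.11). In all, 9 of 18 rose, 2 fell and 7 were not called.

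The machinery of inflammasomes and cell death rose as well, with 20 raised, 1 lowered (Bcl2, -0.51) and 5 not called of 26. The sensor Nlrp3 rose by 1.93 ± 0.22, Casp1 by 0.87 ± 0.14, the adaptor Pycard by 1.71, Casp4 (caspase-11) by 1.90 and the necroptosis kinase Ripk3 by 2.72. The pro-survival copies Bcl2a1a (3.13 ± 0.19) and Bcl2a1d (2.99 ± 0.21) rose most, but they are near-identical and cannot be told apart with certainty.

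Oxidant production and defence rose side by side. Of 24 genes, 15 rose, none fell and 9 were not called. The catalytic subunit of the phagocyte NADPH oxidase, Cybb, measured 407, 377, 242 and 460 in the PBS animals and 9605, 7904, 1368, 4054 and 6512 in the LPS animals (log2 fold change 3.98 ± 0.49 (SE), adjusted p = 1.06e-04), from 3.68-fold (animal 270) to 25.9-fold (animal 266) over the PBS mean. Its partners Rac2 (2.09 ± 0.21), Ncf4 (1.56), Ncf1 (1.33) and Cyba (1.22) rose, and so did heme oxygenase 1 (Hmox1, 1.71 ± 0.13) and mitochondrial superoxide dismutase (Sod2, 1.56 ± 0.22). Of 15 iron-handling genes, 9 rose, 5 were not called and the iron exporter ferroportin (Slc40a1, -1.98 ± 0.51) fell. Ferritin heavy chain (Fth1) rose by 0.84 ± 0.10. Inducible nitric oxide synthase (Nos2) stayed under the filter, at 5.87 to 16.9 in PBS and 1.81 to 17.9 in LPS animals.

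Homeostatic microglial genes fell and none rose. Of 26 tested, 20 fell and 6 were not called, with a median of -1.12, and in those 20 the groups did not overlap. The fructose transporter Slc2a5 had the largest fall of the genes averaging 100 or more: it measured 2411, 2950.3, 2193 and 3008 in the PBS animals and 33.6, 83.3, 157, 71.3 and 76 in the LPS animals (log2 fold change -4.95 ± 0.31 (SE), adjusted p = 9.30e-07). The purinergic receptor P2ry12, which directs microglial processes towards ATP, measured 8776, 9282, 7289 and 10505 in the PBS animals and 892, 1546, 2481, 1499.9 and 1564 in the LPS animals (log2 fold change -2.49 ± 0.23 (SE), adjusted p = 1.42e-05), and the lysophosphatidylserine receptor Gpr34 3394, 2822, 2107 and 4046 in the PBS animals and 121, 291, 413, 112 and 435 in the LPS animals (log2 fold change -3.49 ± 0.39 (SE), adjusted p = 5.17e-05). In all 3 genes every LPS animal lay below every PBS animal, which the rule for naming the largest falls required.

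Not all of the identity genes moved alike. Tmem119 measured 15170, 14027, 13801 and 16393 in the PBS animals and 6155, 9975, 7045, 5958 and 11053 in the LPS animals (log2 fold change -0.89 ± 0.18 (SE), adjusted p = 0.00281), a smaller fall. Cx3cr1, whose locus drives the Cre, measured 12317, 14615, 13099 and 14515 in the PBS animals and 10659, 14764, 8231, 10419 and 14284 in the LPS animals (log2 fold change -0.22 ± 0.16 (SE), adjusted p = 0.29), with overlapping groups. Csf1r (-0.18), Sparc (-0.46†), Pros1 (-0.21), Tanc2 (-0.29†) and Cd33 (0.64†) were not called either. Selplg (-1.68 ± 0.24), Siglech (-1.79), Entpd1 (-1.83), P2ry13 (-1.81) and Olfml3 (-1.45) fell.

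**Figure D3:**
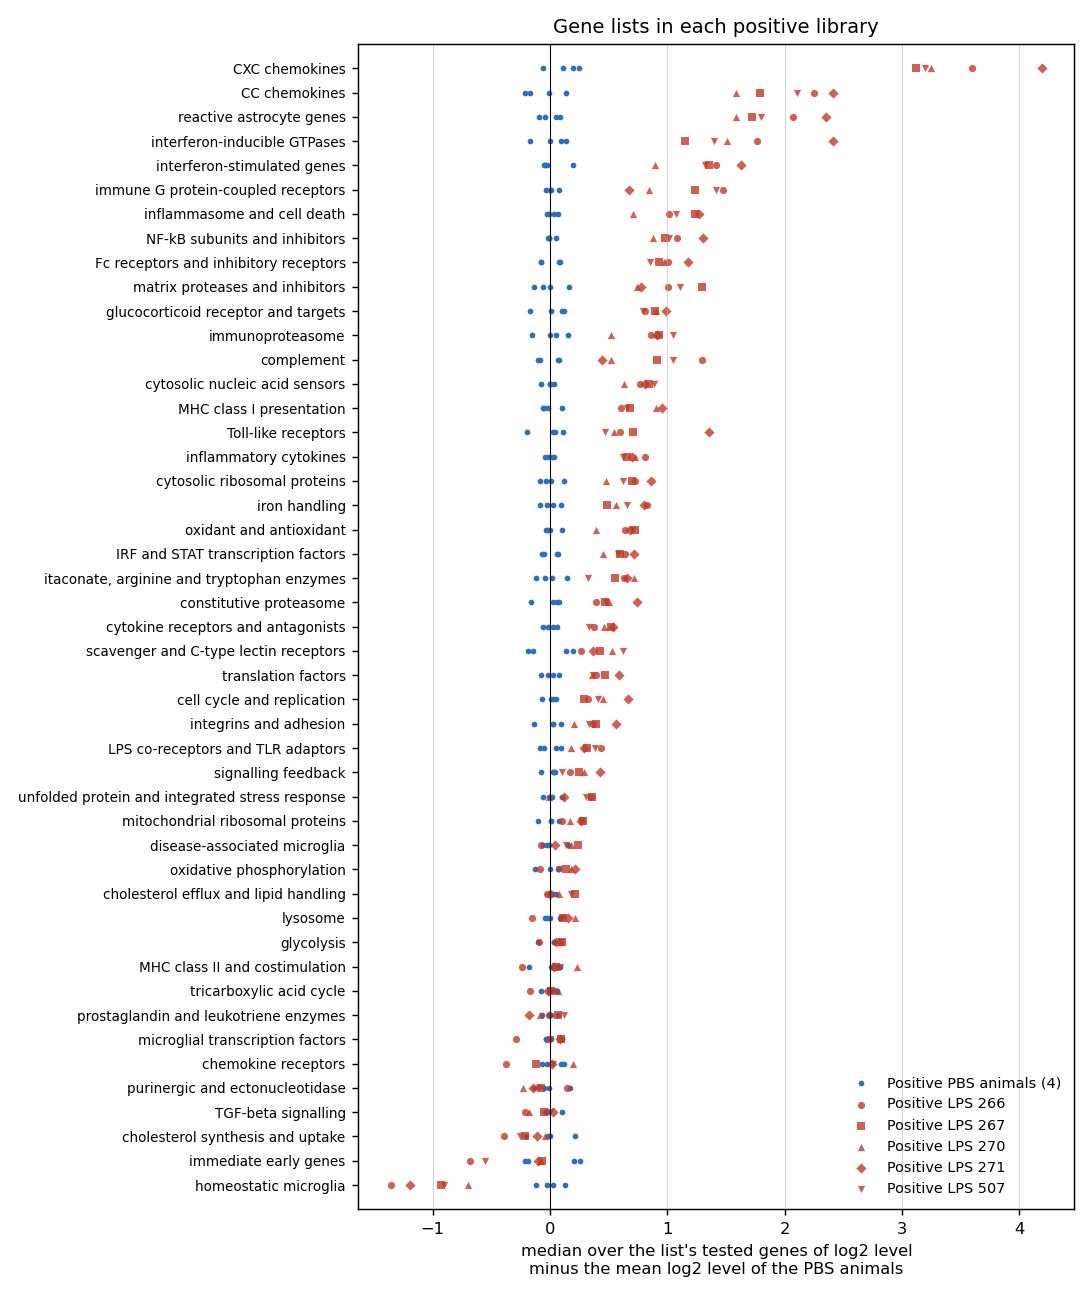
For 47 gene lists, each point is 1 positive library: the median over the list's tested genes of the log2 level minus the mean log2 level of the PBS animals, with PBS animals in blue and each LPS animal as its own red symbol. All 5 LPS animals lie above all PBS animals in 31 lists and below them in 1, the homeostatic microglial genes.

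Genes linked to microglial identity and state moved in both directions. Of 15 microglial transcription factors, 5 rose, 4 fell and 6 were not called. PU.1 (Sfpi1, 1.41 ± 0.12), Tfec (1.15 ± 0.33†), Runx1 (0.79) and Irf8 rose, while Egr1 (-0.65 ± 0.22†), Sall1 (-0.46), Etv5 (-0.44) and Mef2c (-0.35†) fell. Tfec was not called without PBS animal 268 or 273, and Egr1 was not without LPS animal 266, 271 or 507 or PBS animal 272 or 273. Of 17 genes of TGF-beta signalling, the receptor Tgfbr1 fell (-1.36 ± 0.24), as did Ltbp1 (-0.68†), Tgfb2 (-0.42†) and Smad7 (-0.39†), the repressor Tgif1 rose (1.35 ± 0.20) and 12, Tgfb1 (0.18 ± 0.09) among them, were not called. The median of these 17 genes was -0.05, and their called share was near that of all genes (31.8%). Of 16 purinergic genes, 5 rose, 4 fell and 7 were not called: the UDP receptor P2ry6 (0.86 ± 0.14), P2ry2 (2.09 ± 0.32) and P2rx4 (1.00) rose as P2ry12, P2ry13, Entpd1 and P2rx7 (-0.55) fell.

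The genes of disease-associated microglia, a state described around amyloid plaques, did not move as one. Of 23 tested, 9 rose, 8 fell and 6 were not called. The lipid receptor Trem2 measured 6252, 6642, 6892 and 7750.5 in the PBS animals and 957, 2181, 3026, 1992 and 2184 in the LPS animals (log2 fold change -1.73 ± 0.24 (SE), adjusted p = 2.32e-04) and apolipoprotein E (Apoe) 59776, 50245, 53658 and 69931 in the PBS animals and 29160, 35745, 43869, 37304 and 34066 in the LPS animals (log2 fold change -0.70 ± 0.13 (SE), adjusted p = 0.00168). For both genes every LPS animal lay below every PBS animal, and Clec7a and Lpl (-0.57†) fell too. The cystatin Cst7 rose by 2.76 ± 0.19, Cd52 by 1.79 ± 0.29, Cd63 by 1.35 and Spp1 by 1.00.

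Markers of border-associated macrophages fell more often than they rose, with 8 of 15 lowered, 2 raised and 5 not called. Mrc1 measured 2672, 1612, 1233 and 2678 in the PBS animals and 815, 633, 987, 704 and 899.8 in the LPS animals (log2 fold change -1.34 ± 0.22 (SE), adjusted p = 7.58e-04) and the hyaluronan receptor Lyve1 1131, 593, 492 and 1180.5 in the PBS animals and 114, 197, 127, 72.3 and 288 in the LPS animals (log2 fold change -2.41 ± 0.38 (SE), adjusted p = 5.51e-04). The C-type lectin Cd209f measured 297, 192, 189.8 and 297 in the PBS animals and 13.5, 30.9, 8.48, 4.02 and 48.8 in the LPS animals (log2 fold change -3.51 ± 0.50 (SE), adjusted p = 2.81e-04), and Cd209b (-4.17 ± 0.52) fell as well, with 55.5 to 155 in PBS and 0 to 9.04 in LPS animals. Cd163 was not called (0.13 ± 0.27). The raised members were Ms4a6c (3.76 ± 0.29) and Siglec1 (2.52), an ISG as well as a marker. The summed level of the list was 11396 to 19316 in PBS and 13179 to 29214 in LPS animals, with Ms4a6c alone at 579 to 979 in PBS and 5407 to 13160 in LPS animals.

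Lysosomal proteases moved in both directions. Cathepsin D (Ctsd) measured 68770, 67645, 71148 and 82230 in the PBS animals and 25028, 39997, 52162, 39651 and 35436 in the LPS animals (log2 fold change -0.91 ± 0.17 (SE), adjusted p = 0.0016), whereas cathepsin L (Ctsl) measured 8065, 7332, 7381 and 8885 in the PBS animals and 23664, 23273, 25698, 30253 and 25671 in the LPS animals (log2 fold change 1.70 ± 0.11 (SE), adjusted p = 9.30e-07). Cathepsins C (1.84 ± 0.17) and Z (1.38 ± 0.12) rose like Ctsl. Of 32 lysosomal genes, 9 rose, 4 fell, Ctsd, Hexa (-1.29) and Man2b1 (-0.64) among them, and 19 were not called, with a median of 0.08. The losses in count were largest for very abundant genes: cystatin C (Cst3, -0.58 ± 0.13) fell, with 89366 to 105500 in PBS and 50464 to 78764 in LPS animals, and so did selenoprotein P (Sepp1, -1.60 ± 0.13), with 23312 to 30725 in PBS and 7258 to 11391 in LPS animals.

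All 62 cytosolic ribosomal protein genes rose, by 0.39 to 1.18 on the log2 scale (median 0.68). Rps18 measured 3141, 3019, 3389.9 and 3425 in the PBS animals and 7715, 7456, 5955, 8816 and 6850.1 in the LPS animals (log2 fold change 1.18 ± 0.11 (SE), adjusted p = 1.69e-05), at least 1.84-fold over the PBS mean in every LPS animal. Ribosomal protein genes have many processed pseudogenes with nearly the same sequence, which the counting could have split. Of 34 translation factors, 21 rose and 13 were not called. The elongation factor Eef1a1 measured 50725, 48219, 53449 and 51629 in the PBS animals and 73549, 69976, 61070, 72583 and 67178 in the LPS animals (log2 fold change 0.43 ± 0.09 (SE), adjusted p = 0.0023), Eif5a rose by 1.01 ± 0.12 and the inhibitor of cap-dependent translation Eif4ebp1 by 1.78 ± 0.16. Mitochondrial ribosomal proteins moved less: 11 of 43 rose, 32 were not called and the median was 0.20, with Mrps28 (0.84 ± 0.13) the most raised.

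In energy metabolism, oxidative phosphorylation and the citric acid cycle changed at a few points only. The called share of glycolytic genes was near that of all genes (31.8%). Of 50 subunits of oxidative phosphorylation, 49 were not called and 1 (Sdhd, 0.41 ± 0.08, a subunit of succinate dehydrogenase, the enzyme that itaconate inhibits) rose. Of 21 citric acid cycle genes, 19 were not called, and Aco1 (0.50 ± 0.09) and Suclg2 (0.34 ± 0.09†) rose; Suclg2 was not called without LPS animal 267 or 271. Of 20 glycolytic genes, 4 rose, 3 fell (Slc2a1 -0.57, Pfkp -0.47 and Pdk1 -0.39) and 13 were not called. The 4 were the regulatory enzyme Pfkfb3 (1.72 ± 0.21), the lactate exporter Slc16a3 (0.80 ± 0.13), Slc2a6 (0.56†) and Ldha (0.36).

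Of 22 cholesterol synthesis and uptake genes, 5 fell, among them Srebf2 (-0.50 ± 0.09), Sqle (-0.47†), Cyp51 (-0.45) and Hmgcs1 (-0.42†), 2 rose (Lss 0.44† and Ebp 0.34†) and 15 were not called. The called share of this list was near that of all genes (31.8%). Of 19 efflux and lipid-handling genes, 7 rose, 4 fell and 8 were not called: apolipoprotein C2 (Apoc2, 4.76 ± 0.28), cholesterol 25-hydroxylase (Ch25h, 3.52 ± 0.41), the lipid droplet protein Plin2 (2.88) and the efflux pump Abca1 (0.74 ± 0.13) rose, and Pltp (-2.34) and Cd36 fell.

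Enzymes of prostaglandins and leukotrienes moved in a mixed way, with 4 of 15 raised, 4 lowered and 7 not called. The inducible cyclooxygenase Ptgs2 (1.33 ± 0.29), Ptges (2.22) and Alox5 (1.79) rose, as did Pla2g4a (0.87), and the constitutive Ptgs1 (-0.15 ± 0.16) was not called. The prostaglandin-degrading enzyme Hpgd measured 2133, 2094, 1943 and 2512 in the PBS animals and 324, 469, 504, 315 and 501 in the LPS animals (log2 fold change -2.36 ± 0.16 (SE), adjusted p = 1.40e-06). Leukotriene C4 synthase (Ltc4s) measured 1317, 1251, 1366 and 1419.8 in the PBS animals and 48.2, 129, 681, 152 and 117 in the LPS animals (log2 fold change -2.56 ± 0.57 (SE), adjusted p = 0.00473), with animal 270 far above the other 4 LPS animals and below all PBS animals. Hpgds (-1.07) and Tbxas1 (-1.27) fell too.

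Among proteases of the matrix and their inhibitors, 10 of 17 rose, 2 fell and 5 were not called. Mmp3 rose by 4.75 ± 0.51 and the inhibitor Timp1 by 4.63 ± 0.29, while Timp2 (-0.43 ± 0.12†) and Plau (-1.49) fell and Mmp9 was not called (-0.35 ± 0.25). Timp2 was not called without PBS animal 272. In the cell cycle list, 11 of 26 rose, none fell and 15 were not called. The replication helicase genes Mcm2 to Mcm7, led by Mcm6 (1.19 ± 0.12), rose together with the cell cycle inhibitor Cdkn1a (1.61 ± 0.23), while the proliferation marker Mki67 was not called (-0.36 ± 0.33).

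Glucocorticoid-responsive genes rose in 12 of 19 cases with none lowered, a list chosen because systemic LPS is known to raise corticosterone. Fkbp5 rose by 1.17 ± 0.25, metallothionein 2 (Mt2) by 2.02 ± 0.25 and Angptl4 by 2.26 ± 0.27, and the receptor Nr3c1 was not called (-0.16 ± 0.08). Under PBS, Fkbp5 measured 8614 and 8189 in the females 268 and 506 and 2928 and 5044 in the males 272 and 273. The LPS animals measured 12805 to 14621, so the size of its rise depends on the sexes compared. Immediate early genes were split, with 5 of 21 raised, 7 lowered and 9 not called. Ier2 (1.40 ± 0.18), Ier3 (1.12), Klf4 (0.72), Klf6 (0.63) and Junb (0.61†) rose, and Arc (-1.37 ± 0.29), Fosb (-1.04†), Egr3 (-1.004), Nr4a2 (-0.90), Nr4a3 (-0.86†), Egr1 and Jund (-0.38†) fell. Within the PBS group, Egr1 measured 2865 and 3261 in the females 268 and 506 and 5405 and 5504 in the males 272 and 273. Arc measured 1988 and 2305 in these females and 4861 and 4120 in these males. With sex as a covariate, and in the female animals alone, Egr1 was not called while Arc kept its call. The part of sex in these falls and in the rise of Fkbp5 was not tested further.

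Markers of blood cells were measured beside these results. Of 16 neutrophil markers, 9 were under the filter, and 4 of the 7 tested passed it through the LPS libraries alone. The 7 tested held 5 that rose, 1 that fell (-0.93) and 1 that was not called. The 5 that rose included S100a8 at 21.7, 5.29, 21.8 and 9.39 in the PBS animals and 501, 345, 153, 546 and 339 in the LPS animals (log2 fold change 4.71 ± 0.47 (SE), adjusted p = 2.50e-05) and S100a9 (1.90 ± 0.52). S100a9 was not called in the female animals alone or without the animals numbered in the 500s. Granule genes that define neutrophils were barely detected: Camp ranged from 0 to 3.95 in PBS and 0 to 26.9 in LPS animals, Ltf from 0 to 8.89 and 0 to 6.33, and Mpo from 0 to 6.04 and 1.7 to 4.52. The summed level of the 16 neutrophil markers was 1802.5 to 2094.2 in PBS and 2256.1 to 2725 in LPS animals. Ly6g and Elane were listed at 0 in all 9 libraries. A listing at 0 is not read as absence here, since Bmpr2 and Xbp1, which most cells use, were also listed at 0.

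Of 11 monocyte markers tested, of which 5 passed the filter through the LPS libraries alone, 5 rose (Hp, Cd244 4.58 ± 0.18, Ms4a4c 3.12, Klra2 2.37 and S100a4 0.97†), the defining receptor Ccr2 fell (-2.33 ± 0.37) and 5, Ly6c2 (0.29 ± 0.28) among them, were not called. Their summed level ran 1737.9 to 3444.1 in PBS and 2110.2 to 4494.6 in LPS animals. The lymphocyte markers Cd3e and Cd79a were under the filter, at 0 to 7.91 in PBS and 0 to 0.936 in LPS animals and 0.882 to 4.84 in PBS and 0 to 5.94 in LPS animals. The part of infiltrating cells in the rises of myeloid genes was not tested.

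Markers of the other brain cells were measured in the same way. Of 17 neuron markers, 7 fell, none rose and 10, Snap25 (-0.25 ± 0.12) and Syt1 (-0.16 ± 0.10) among them, were not called, and their summed level was 356045 to 400849 in PBS and 293772 to 356211 in LPS animals. Of 16 oligodendrocyte markers, 6 fell and 10 were not called, with Mog at -1.30 ± 0.16. Of 18 endothelial markers, 6 fell, 2 rose and 10 were not called, beside the lower ratio to input under LPS given above, with Tek (-1.88 ± 0.30) and Abcb1a (-1.40 ± 0.31) the most lowered; the call of the raised Cldn5 (0.49 ± 0.17†) was lost without any of LPS animals 267 and 271 and PBS animals 268 and 506. Of 12 markers of oligodendrocyte precursors, 5 fell, led by Gpr17 (-2.41 ± 0.24), and 7 were not called.

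General astrocyte markers moved little, while genes of reactive astrocytes rose. Of 16 general markers, 3 rose, 3 fell and 10, Aldh1l1 (0.21 ± 0.12) and Aqp4 (-0.20 ± 0.13) among them, were not called. Gfap measured 6648, 5059, 5560 and 5817 in the PBS animals and 24183, 25523, 16079, 23381 and 21220 in the LPS animals (log2 fold change 1.94 ± 0.14 (SE), adjusted p = 2.58e-06). Of 33 reactive astrocyte genes, 28 rose, 1 fell and 4 were not called, but 5 of the 33 passed the filter through the LPS libraries alone. This list also shares Lcn2, Cxcl10, Timp1, Cd14 and Gbp2 with the inflammatory lists above. Which cells the RNA of such shared genes came from was not tested.

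Animals differed more from each other after LPS than after PBS. Over 12379 genes that averaged 100 or more counts, the median SD of the log2 level was 0.139 across the 4 PBS animals and 0.193 across the 5 LPS animals. For the 138 genes raised over 5-fold it was 0.302 and 0.464. In these 138 genes animal 270 was the lowest LPS animal in 94 (68.1%), whereas among genes not called it was the lowest in 21.6%. Animal 271 was the highest in 60 (43.5%, beside 22.2% of genes not called) and animal 266 in 47 (34.1%, beside 23.7%). Animal 271 is also the one with the most Rn45s. Among 197 genes lowered over 2-fold, animal 271 was the lowest in 72 (36.5%, beside 17.6% of genes not called) and animal 267 was the highest in 73 (37.1%, beside 16.5%), while animal 266 was the lowest in 56 (28.4%, beside 32.6%).

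The direction was nonetheless shared. When genes were called without a given LPS animal, the genes raised were above the PBS mean in that animal in 95.4 to 99.3% of cases, and the genes lowered were below it in 96.5 to 99.4%. The median log2 difference of the left-out LPS animal over those raised genes ran from 0.55 (animal 270) to 0.82 (animal 271), and over the lowered genes from -0.62 (animal 271) to -0.42 (animal 267). For a left-out PBS animal, compared with the other 3, the same medians were between -0.02 and 0.07 and between -0.11 and 0.01. The left-out PBS animal lay above that mean in 44.1 to 64.8% of the raised genes and below it in 47.7 to 72.4% of the lowered genes. The PBS animals behind the mean also served to call the genes, which favours a shared direction.

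Marco varied 21.3-fold within the LPS group, C3 6.13-fold, Cybb 7.02-fold and Ccl3 8.5-fold, against 1.64-fold for Tlr2 and 1.79-fold for Fcgr4. The transcript 1600029D21Rik measured 20.8, 6.17, 12.1 and 14.1 in the PBS animals and 28, 134, 446, 141 and 146 in the LPS animals (log2 fold change 3.76 ± 0.70 (SE), adjusted p = 0.00161), with animal 270 the highest. Chaperones of the endoplasmic reticulum divided the LPS animals: Hspa5 (BiP) measured 12565, 13495, 12098 and 13431 in the PBS animals and 21728, 23064, 11842, 12547 and 22853 in the LPS animals (log2 fold change 0.51 ± 0.20 (SE), adjusted p = 0.0682) and Sdf2l1 1136, 1091, 971 and 1200.4 in the PBS animals and 3690.5, 4479.8, 980, 1103 and 4598 in the LPS animals (log2 fold change 1.43 ± 0.43 (SE), adjusted p = 0.023), so that animals 270 and 271 were near the PBS level and animals 266, 267 and 507 above it. Hspa5 was called without either of animals 270 and 271, and Sdf2l1 was not called without LPS animal 507 or PBS animal 272, 273 or 506. Manf (0.99 ± 0.24) was likewise lowest in animals 270 and 271 within the LPS group. In the PBS group, Irs4 was set by 1 animal: it measured 93.9, 615, 91.9 and 111 in the PBS animals and 63.9, 103, 78.1, 63.3 and 103 in the LPS animals (log2 fold change -1.48 ± 0.54† (SE), adjusted p = 0.04996), and without PBS animal 272 or any 1 of the 5 LPS animals it was not called.

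**Figure D4:**
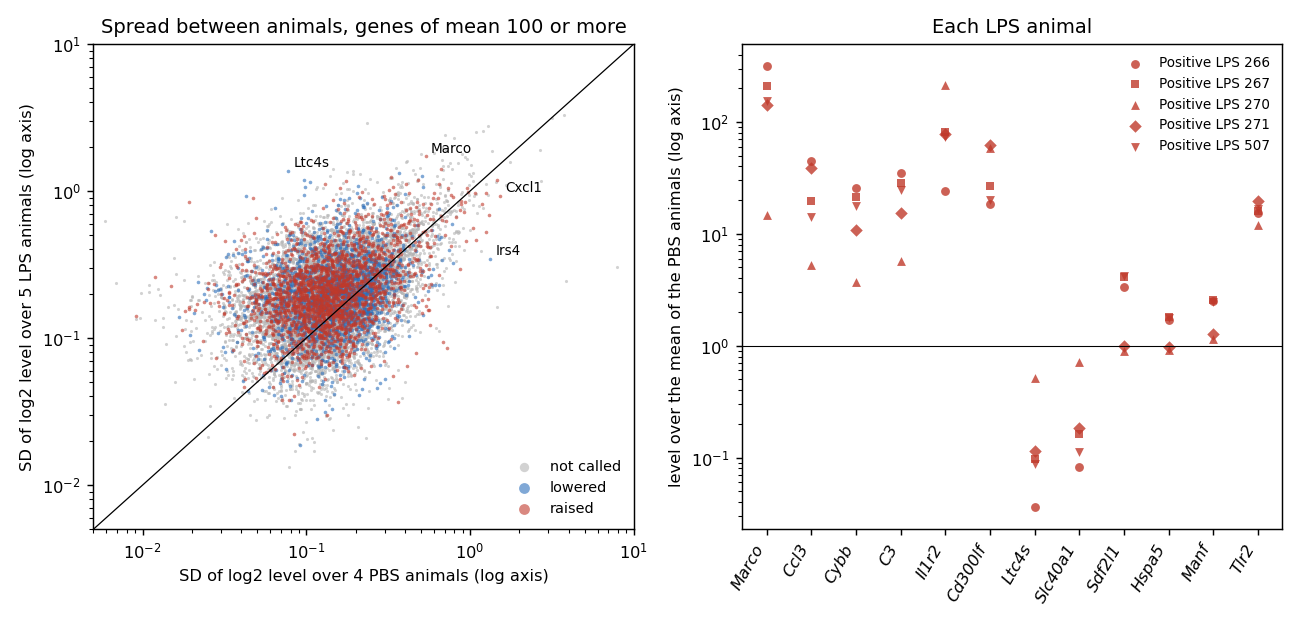
Left, each point is 1 gene averaging 100 or more counts, placed by the SD of its log2 level over the 4 PBS animals and over the 5 LPS animals (both log axes), with the line of equality and with raised genes in red, lowered genes in blue and genes not called in grey; right, the level of 12 genes in each LPS animal over the mean of the PBS animals (log axis). Animal 270 is the lowest for Marco, Cybb and C3 and the highest for Il1r2 and Ltc4s, and animals 270 and 271 lie near 1 for Hspa5 and Sdf2l1.

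The LPS effect in the positive fraction was last set against that in input. The fit used 17 libraries, without the input library of LPS animal 271, which held 1252 counts in all. Of 14805 genes tested, 1020 (6.89%) were called for a difference of the 2 effects, with 809 more positive and 211 more negative in the positive fraction. Since both libraries of an animal come from the same brain, the paired fit with the animal as a replicate block was also made. It kept only animals with both libraries, so LPS animal 271 was left out, and it called 1910 genes, of which 1311 were higher and 599 lower. Without animals 506 and 507 the unpaired fit called 323, of which 264 were higher and 59 lower. The single differences and list counts below are of the unpaired fit, and list counts were not made with the paired fit.

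The largest differences were those of 1810033B17Rik (4.56 ± 0.52, adjusted p = 3.72e-05), Irg1 (4.44 ± 1.07, adjusted p = 0.0153), Trem1 (3.90 ± 0.77, adjusted p = 0.00419), Il1r2 (3.63 ± 0.85, adjusted p = 0.0131) and Marco (3.55 ± 0.97, adjusted p = 0.0319). For Fcgr4 the difference was 2.12 ± 0.32, adjusted p = 4.58e-04. The most negative differences were those of Il7r (-3.33 ± 0.70, adjusted p = 0.00613), Upk1b (-2.87 ± 0.52, adjusted p = 0.00233), Lyve1 (-2.67 ± 0.51, adjusted p = 0.0032), Hpgd (-2.64 ± 0.21, adjusted p = 2.35e-06) and Dusp27 (-2.51 ± 0.49, adjusted p = 0.00388). For Hpgd the effect in input was 0.30 and for Lyve1 0.28, beside the falls given above. Sepp1 differed in the same way (-1.39 ± 0.17, adjusted p = 9.63e-05), with -0.19 in input. The difference of Marco was no longer called without input LPS 267 or 507, input PBS 272, 273 or 506, positive LPS 266 or positive PBS 268, 272 or 273 (edgeR adjusted p up to 0.0697), and the difference of Il1r2 without input PBS 272 (0.0521). Without animals 506 and 507, the difference of Irg1 (adjusted p = 0.149), the difference of Marco (0.167), the difference of Il7r (0.151), the difference of Dusp27 (0.0826), the difference of Upk1b (0.0608) and the difference of Il1r2 (0.0583) were not called.

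Ribosomal protein genes differed nearly as a block, with 57 of 62 higher in the positive fraction. Their median effect was 0.04 in input, and for Rps18 the difference was 1.08 ± 0.16, adjusted p = 4.29e-04. Among the 31 constitutive proteasome genes 16 were higher, and among 34 translation factors 13. The interferon-inducible GTPases went the other way: 5 of 15 were lower in the positive fraction, with a median of 2.49 in input, and Psmb8 also rose less there than in input (-1.26 ± 0.23, adjusted p = 0.00277). By the unpaired fit, 1 of 35 ISGs was higher and none lower, and of 26 homeostatic microglial genes 5 were lower, with a median of -0.47 in input.

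**Figure D5:**
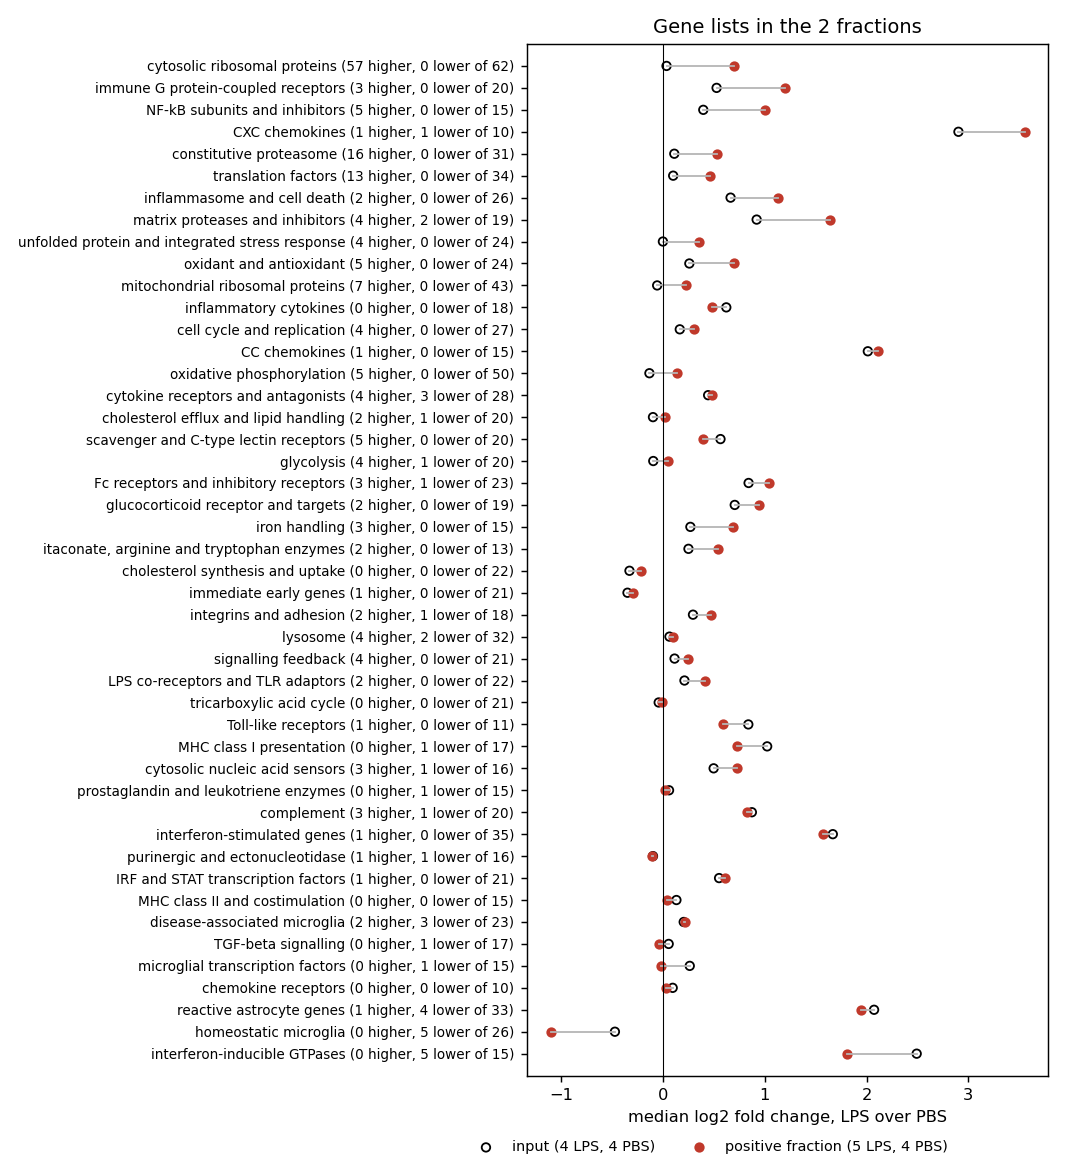
For gene lists with at least 10 tested genes, the median log2 fold change, LPS over PBS, in input (open circles, 4 LPS and 4 PBS animals) and in the positive fraction (red circles, 5 LPS and 4 PBS animals), sorted by the median difference, with the number of genes called higher or lower in the positive fraction behind each name. These numbers are of the unpaired fit. Cytosolic ribosomal proteins, with 57 of 62 higher, lie near 0 in input, and the interferon-inducible GTPases, with 5 of 15 lower, lie further right in input.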

How the data were processed

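RNA was measured in positive-fraction libraries of 5 LPS and 4 PBS mice and in the input libraries of the same mice; each mouse is 1 replicate. Paired-end reads were aligned and quantified by the authors in Strand NGS against mm10 with a RefSeq gene model, and normalised there with DESeq. The deposited table holds, per gene, unnormalised estimated counts (81.58% of the nonzero values were not whole at a tolerance of 1e-06) and the authors' log2 normalised values. The estimated counts were rounded to whole numbers and tested, and the deposited log2 values were not used, because a count test needs the former. 379 rows share a symbol with an earlier row and were kept apart. How Strand NGS shares reads among near-identical genes is not given in the sources used here, so single values of paralogous families (Saa, Ifit, Gbp, Ms4a, Mrpl and histone genes) are uncertain.

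Totals were 22968939 to 32710275 counts per positive library. Libraries were scaled by the median of ratios over the 16000 genes counted in every positive library. Genes with over 20 normalised counts in every library of at least 1 group were tested with the quasi-likelihood test of edgeR 4.0.16 (R 4.3.3; 7 residual degrees of freedom) with Benjamini-Hochberg adjustment, and called at an adjusted p under 0.05 and an absolute log2 fold over 0.32. Levels were summarised as log2 of the normalised count plus 1. The difference between fractions was the interaction of treatment and fraction in 17 libraries; the input library of LPS animal 271, with a total of 1252 counts, fell under 10% of the median total and was left out. Both libraries of a number came from the same mouse, and their deviations from the group means correlated in all 8 animals with both libraries (r 0.222 to 0.625 over 12616 genes). The scripts were tested on simulated data. Alternatives were DESeq2 1.42.0, limma 3.58.1, other scalings, filters and fold thresholds, sex as a covariate, female animals only, the animal as a block, and leaving out libraries.

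The members, the 58 gene lists and the tests were chosen with earlier results of these data known. The genes named were, by rule, the 20 largest rises and 20 largest falls among called genes averaging 100 or more counts with no overlap between groups, 2 anchors and the 2 most changed called members of each list, the 5 most variable called genes of each group, the 10 largest gains and 10 largest losses in count, and the 5 largest and 5 smallest differences between fractions, which made 233 genes; some of them, and some list members, are not reported here. Other list members, and genes of small counts, were named after their values were seen. Promoter sequences are RefSeq, mm10 (GRCm38). Where 1 sample of a group was left out, the remaining ones carried the spread.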

Additional observations from a re-analysis of the deposited data

Results flagged for a closer look

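In 96 groups of 4 or 5 animals, 1 animal lay far from the others of its group in 5 genes. This share is near the 1 in 20 groups that would do so by chance. Of the 5 genes, Ltc4s, 1600029D21Rik and Irs4 were named by rule for a large spread, so the chance share does not apply to them. Cxcl10 reached 1630 normalised counts and Ifit1 652 in LPS animal 271, while Ltc4s (681.3) and 1600029D21Rik (446.3) stood apart in LPS animal 270 and Irs4 (614.6) in PBS animal 272. Among 94 groups of list values (median log2 level against the PBS mean), 7 had such an animal. Against its group, the TGF-beta signalling list stood at 0.1057 in PBS 506, the Toll-like receptors at 1.355 in LPS 271, signalling feedback at -0.07962 in PBS 272, the interferon-stimulated genes at 0.1939 in PBS 273, glycolysis at -0.1025 in PBS 268 and at -0.09074 in LPS 266, and the oxidant and antioxidant list at 0.3922 in LPS 270. LPS animal 271 is also the library with the most Rn45s, and its part in these values was not tested.

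The LPS effect differed between the positive fraction and input, by the test of that difference (edgeR interaction), in the following 14 genes, the largest and smallest by rule and those whose difference is described; other genes named above were also called for it. On the log2 scale it was higher in the positive fraction by 4.558 for 1810033B17Rik, 4.442 for Irg1, 3.902 for Trem1, 3.626 for Il1r2, 3.554 for Marco, 2.124 for Fcgr4 and 1.076 for Rps18. The difference was -3.328 for Il7r, -2.865 for Upk1b, -2.67 for Lyve1, -2.641 for Hpgd, -2.51 for Dusp27, -1.392 for Sepp1 and -1.262 for Psmb8. The differences of Marco and Il1r2 were lost when 1 library was left out, with adjusted p up to 0.0697 for Marco and 0.0521 for Il1r2 (the latter without input PBS 272).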

How the results depend on the processing

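No alternative called any of the 227 named genes that were tested in the opposite direction, and 46 of them changed their call under at least 1 alternative other than a fold over 2. Of all genes tested, none was called in the opposite direction in the positive fraction under any of the alternatives. The number of genes called in the positive fraction (4526) was 4796 with DESeq2, 4484 with TMM scaling, 4502 with total count scaling, 4525 with limma, 4492 without a filter, 4098 with a filter of over 100, 5012 with all libraries in 1 fit, 4050 with sex as a covariate, 5078 with no fold threshold, and 3779 (without PBS 272) to 4510 when 1 library was left out. The raised genes then ranged from 2128 to 2466 and the lowered genes from 1651 to 2073. A fold over 2 left 1047 genes (702 raised, 345 lowered), and the female animals alone gave 2176 (1294 raised, 882 lowered). The difference between fractions (1020 genes, 809 higher and 211 lower) was called in 1360 genes with DESeq2, in 902 with all 18 libraries, in 323 (264 and 59) without animals 506 and 507 and in 748 to 1261 when 1 library was left out, with 596 to 1020 higher and 145 to 259 lower. With the animal as a replicate block, the pairing that the design gives, it was called in 1910 genes (1311 higher, 599 lower), and no named difference changed its call.

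The median of prostaglandin and leukotriene enzymes (0.0037) lay near 0 and changed sign with total count scaling (-0.00218) and between alternatives (-0.197 without LPS 507 to 0.0752 without LPS 271), and of the 1102 list medians under alternatives, 40 moved by more than the spread between replicates. The call of 22 named genes and of 29 of the 124 other list members given above changed when 1 library was left out. The members whose call was lost, with the highest adjusted p (edgeR) among those settings in parentheses, were Cd300a without PBS 268 or 506 (0.0573), Cd59a without LPS 266, 271 or 507 or PBS 268, 272, 273 or 506 (0.121), Cd80 without LPS 270 or 271 or PBS 268, 272, 273 or 506 (0.1), Ebp without LPS 267 or 507 or PBS 268, 272 or 273 (0.0846), Fosb without PBS 272 or 273 (0.0907), Hmgcs1 without LPS 267 or 507 or PBS 272, 273 or 506 (0.0986), Ifi203 without LPS 267, 270, 271 or 507 or PBS 268, 272 or 273 (0.0894), Il15 without PBS 273 (0.0533), Il21r without LPS 267 or 271 or PBS 272, 273 or 506 (0.137), Irf4 without LPS 266, 270 or 507 or PBS 268 or 506 (0.127), Junb without PBS 506 (0.0556), Jund without LPS 266, 267, 271 or 507 or PBS 272, 273 or 506 (0.147), Lpl without PBS 272 or 506 (0.0579), Lss without LPS 266, 270 or 271 or PBS 268, 272, 273 or 506 (0.106), Ltbp1 without PBS 272 or 273 (0.0642), Mef2c without LPS 266, 267, 270 or 271 or PBS 268 or 506 (0.122), Nr4a3 without LPS 270 or 271 or PBS 272 or 273 (0.0956), S100a4 without LPS 507 or PBS 268 or 273 (0.0663), Slc2a6 without LPS 267 or 507 or PBS 268, 272, 273 or 506 (0.0917), Smad7 without LPS 266, 271 or 507 or PBS 268, 273 or 506 (0.112), Sqle without PBS 272 (0.0575), Stat5b without LPS 270, 271 or 507 or PBS 268, 272, 273 or 506 (0.105), Tgfb2 without LPS 266, 270 or 271 or PBS 272, 273 or 506 (0.135), Ticam2 without PBS 268, 272 or 273 (0.0622), Tmem173 without PBS 272 or 506 (0.0626). Cd33 without LPS 266 or 507, Irak4 without LPS 270 or 271, and Sparc and Tanc2 without LPS 270 were gained (adjusted p 0.0093 to 0.0408). The causes were not tested. Totals of the 9 libraries ranged from 22968939 to 32710275 counts; genes near the filter of 20 counts have the widest counting error, and no value separates treatment from the uneven sexes beyond the covariate fit and the female animals.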
